A study of Mus musculus with 9 samples.

Results

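The EMT transcription factors Snai1, Snai2, Twist1, Twist2, Zeb1 and Zeb2, the cadherins Cdh1, Cdh2 and Cdh11, and the tight junction gene Tjp1 were followed through cultures of mouse cardiosphere-derived cells (CDCs). These 10 genes were taken by symbol from the 54532 genes of the deposited table, and all 10 were found. CDCs are a mixed cell population that grows out of cultured heart tissue. RNA sequencing covered 9 libraries from C57BL/6 mice, in 3 groups of 3. The P0 libraries are primary, untreated CDCs, which the study isolated from ventricular epicardium of adult mice and calls pECDCs. The P30 libraries are iCDCs at passage 30 without treatment, made from such cells with a lentivirus carrying human telomerase reverse transcriptase (hTERT) and puromycin selection, and called iECDCs by the study. The SBT libraries are, by their labels, iCDCs at passage 30 treated for 3 days with SB431542, a small molecule that blocks the kinase of the type I TGF-β receptor. The study's methods name another starting cell for the treated cultures, a clone of epithelial appearance derived from primary cells, so the cell that SBT is to be compared with is not settled, and the groups here are those of the labels. P0 and P30 differ in hTERT, in selection and in passage, which cannot be told apart. The labels do not say whether libraries of a group came from separate animals or cultures. The study's methods state fewer biological replicates per condition than the 3 libraries the labels give. Its figure legends for sequencing results give n = 3. Some libraries of a group may therefore share a culture. The n of 3 counts libraries, and p-values measure the spread between these libraries, which may be technical.

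Epithelial to mesenchymal transition (EMT) is the process in which cells of a sheet loosen their junctions and become migratory. Snail, Twist and Zeb factors are its best known drivers, and they bind short E-box sequences through which Snail and Zeb proteins repress Cdh1 and other epithelial genes. During EMT cells commonly exchange E-cadherin (Cdh1) for N-cadherin (Cdh2), and in the embryonic heart the epicardium sends cells into the muscle wall by this route. TGF-β signalling induces several of these factors through SMAD proteins.

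Snai1 lies on the plus strand of chromosome 2, from 167538195 to 167542814, and Zeb2 on the minus strand of the same chromosome, from 44983632 to 45117395. Twist1 lies on the plus strand of chromosome 12, from 33957671 to 33959829. All 10 genes had the start and end of the GENCODE release M21 annotation on GRCm38, although the submitters' processing notes name mm9. The RefSeq table of promoters on GRCm38.p6 held entries for Snai1, Twist1, Twist2, Zeb2 and Tjp1, and none for Snai2, Zeb1, Cdh1, Cdh2 and Cdh11. The 250 bases before the start of Snai1 and of Zeb2 are shown because these factors were called in opposite directions in SBT versus P30. Those of Twist1 are shown as a factor with no call in any comparison. The windows are chr2:167537945-167538194 on the plus strand for Snai1, chr2:45117443-45117692 on the minus strand for the first of the 4 Zeb2 starts, and chr12:33957421-33957670 on the plus strand for Twist1. Capitals mark matches on either strand to CAGGTG, the E-box form that Snail and Zeb proteins bind, or to CAGAC, the core of a SMAD site.

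Snai1 promoter: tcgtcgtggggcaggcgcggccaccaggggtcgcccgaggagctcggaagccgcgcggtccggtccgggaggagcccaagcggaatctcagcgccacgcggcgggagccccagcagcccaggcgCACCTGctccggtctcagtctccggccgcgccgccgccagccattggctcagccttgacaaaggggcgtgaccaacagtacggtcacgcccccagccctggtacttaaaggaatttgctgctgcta
Zeb2 promoter: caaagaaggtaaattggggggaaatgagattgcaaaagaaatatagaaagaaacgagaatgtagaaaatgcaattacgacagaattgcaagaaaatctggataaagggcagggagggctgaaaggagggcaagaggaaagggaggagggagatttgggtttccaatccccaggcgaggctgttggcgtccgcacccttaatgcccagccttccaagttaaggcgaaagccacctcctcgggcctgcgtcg
Twist1 promoter: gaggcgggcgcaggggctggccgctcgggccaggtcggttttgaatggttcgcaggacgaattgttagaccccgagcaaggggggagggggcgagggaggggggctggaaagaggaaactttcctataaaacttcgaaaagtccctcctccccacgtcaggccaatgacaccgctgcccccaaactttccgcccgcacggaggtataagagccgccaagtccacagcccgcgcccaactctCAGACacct

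The Snai1 window held 1 E-box match, read as CACCTG on its own strand and beginning 126 bases before the start, and no CAGAC. The Twist1 window held 1 CAGAC, beginning 9 bases before the start, and no CAGGTG. Neither motif was in the windows of Twist2, of Tjp1 or of the 4 Zeb2 starts. Of 32851 promoter windows of this length, 17.2% held CAGGTG and 42.2% held CAGAC on either strand, and a match is a string of letters, not a site of binding.

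Library totals ran from 16568306 to 23951392 counts. No pair of libraries was identical, but P30 replicate 3 and SBT replicate 2 stood apart from the others of their groups. Over genes with at least 20 counts in a pair, the chi-square value divided by its degrees of freedom was 4.61 between P30 replicates 1 and 2 and 24.9 to 30.8 against replicate 3. It was 3.79 between SBT replicates 1 and 3 and 70.3 to 71.5 against replicate 2. The calls of members and the counts of the gene lists are therefore also given without these libraries. The list genes named by rule gave 144 values without one or both, and all 144 kept their direction and their call. These genes were named because they were called with all libraries, so this outcome was largely set by the choice. Their values without any other library are not given. Krt19 and Acta2 are counted in each list that holds them. Of 5 CDC surface markers, Thy1 (111 to 148 FPKM) and Eng (62.4 to 90.2) were high in all 9 libraries. In SBT versus P30 Ly6a, which encodes Sca-1, rose by 2.25 on the log2 scale (edgeR adjusted p = 0.00262), Cd44 fell by 1.66 (edgeR adjusted p = 0.00489) and the integrin gene Itgb1 fell by 0.75 (edgeR adjusted p = 0.00385). The sum of the 5 was 619 to 620 FPKM in P0, 707 to 733 in P30 and 488 to 521 in SBT, and its part in the member levels was not tested. The summed level of 6 endothelial markers stayed between 0.0401 and 0.168 FPKM. That of 6 cardiomyocyte markers was 1.04 to 1.30 FPKM in P0, 1.53 to 2.31 in P30 and 0.328 to 1.07 in SBT. Among them Tnnt2 rose by 1.36 on the log2 scale in P30 versus P0 (edgeR adjusted p = 0.00202). Tnnt2 fell by 3.07 in SBT versus P30 (edgeR adjusted p = 0.00378), and its part in the member levels was not tested. Summed haematopoietic markers were at 4.14 to 8.27 FPKM, with Csf1r at 3.46 to 7.41 and no count of Adgre1 or Cd3e in any library. Summed markers of other types are given beside the results with which they moved.

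Levels in FPKM, read counts scaled by gene length and library size, placed Cdh2 and Snai1 at the top of the 10 genes. N-cadherin (Cdh2), the adhesion protein of mesenchymal and cardiac muscle cells, was at 90.0, 91.6 and 92.6 FPKM in P0, 101, 107 and 95.0 in P30, and 114, 85.7 and 105 in SBT. Its level lay above 97.8% of protein-coding genes in P0 and above 98.1% in SBT. E-cadherin (Cdh1), the adhesion protein of epithelial sheets, had 0 counts in each P0 library, 2, 0 and 0 in P30, and 1, 2 and 1 in SBT. A count of 0 in a library allows up to 3 counts, or 0.0267 to 0.0427 FPKM here (counting error only), and in the 5 libraries without a count Cdh2 was at least 2227-fold to 3366-fold above that limit. In SBT replicate 2, with 2 counts of Cdh1, the ratio of Cdh2 to Cdh1 was 4120 (95% Poisson interval 1141 to 34021), the lowest of the 4 libraries with a count. Cdh1 was therefore at or under the floor of 3 counts in all 9 libraries, and no fold between groups can be given for it.

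Cadherin-11 (Cdh11), a cadherin of mesenchyme and fibroblasts, was at 3.73, 3.62 and 3.41 FPKM in P0, 3.76, 4.72 and 4.57 in P30, and 2.46, 3.26 and 3.13 in SBT. The SBT libraries were the lowest 3 of the 9. The FPKM ratio of Cdh2 to Cdh11 ran from 24.2 to 27.1 in P0, from 20.8 to 27.0 in P30 and from 26.3 to 46.4 in SBT.

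Snai1, the Snail zinc finger repressor, was at 92.7, 88.8 and 85.8 FPKM in P0, 66.8, 66.5 and 89.6 in P30, and 33.0, 59.2 and 38.8 in SBT. All SBT libraries lay below all others, and SBT replicate 2 and P30 replicate 3, the libraries that stood apart, were each the highest of their group. Snai2, or Slug, its close relative, was far lower, at 3.79, 3.41 and 4.41 FPKM in P0, 4.31, 4.97 and 4.41 in P30, and 4.63, 4.52 and 4.44 in SBT. The Snai2 level was 0.0383 to 0.0514 of the Snai1 level in P0, 0.0492 to 0.0747 in P30 and 0.0762 to 0.140 in SBT.

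Among the Twist genes, which encode basic helix-loop-helix factors of mesoderm, Twist1 was at 31.0, 34.8 and 33.1 FPKM in P0, 39.0, 39.1 and 36.6 in P30, and 32.8, 41.3 and 31.3 in SBT. Twist2 was the lowest of the 9 detected genes in each group, at 0.694, 1.01 and 1.20 FPKM in P0, 0.390, 0.460 and 0.554 in P30, and 0.755, 0.704 and 0.663 in SBT. These Twist2 levels rest on 24 to 89 counts a library, the thinnest base among the tested members. The P30 libraries lay below all others for Twist2.

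Zeb1 and Zeb2 encode related zinc finger and homeodomain repressors. Zeb1 was at 11.2, 10.97 and 10.2 FPKM in P0, 10.8, 12.0 and 10.5 in P30, and 9.08, 9.42 and 8.25 in SBT, where every library was below the other 6. Zeb2 showed the opposite order, with 4.76, 4.80 and 4.60 FPKM in P0, 4.15, 4.48 and 4.20 in P30, and 7.01, 5.20 and 7.15 in SBT. The ratio of Zeb1 to Zeb2 was 2.22 to 2.36 in P0, 2.50 to 2.67 in P30, and 1.29, 1.81 and 1.15 in SBT, so the groups did not overlap in it. On the opposite strand Zeb2 is overlapped by Zeb2os, with 5 to 14 counts a library against at least 1288 for Zeb2, and whether counting used strand is not given in the sources used here.

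Tjp1, which encodes the junction scaffold ZO-1, was at 13.2, 12.9 and 12.0 FPKM in P0, 9.99, 11.8 and 9.97 in P30, and 15.6, 11.8 and 14.1 in SBT. The P30 libraries were below all P0 libraries, and SBT replicate 2 lay within the P30 range while the other SBT libraries lay above it.

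**Figure D1:**
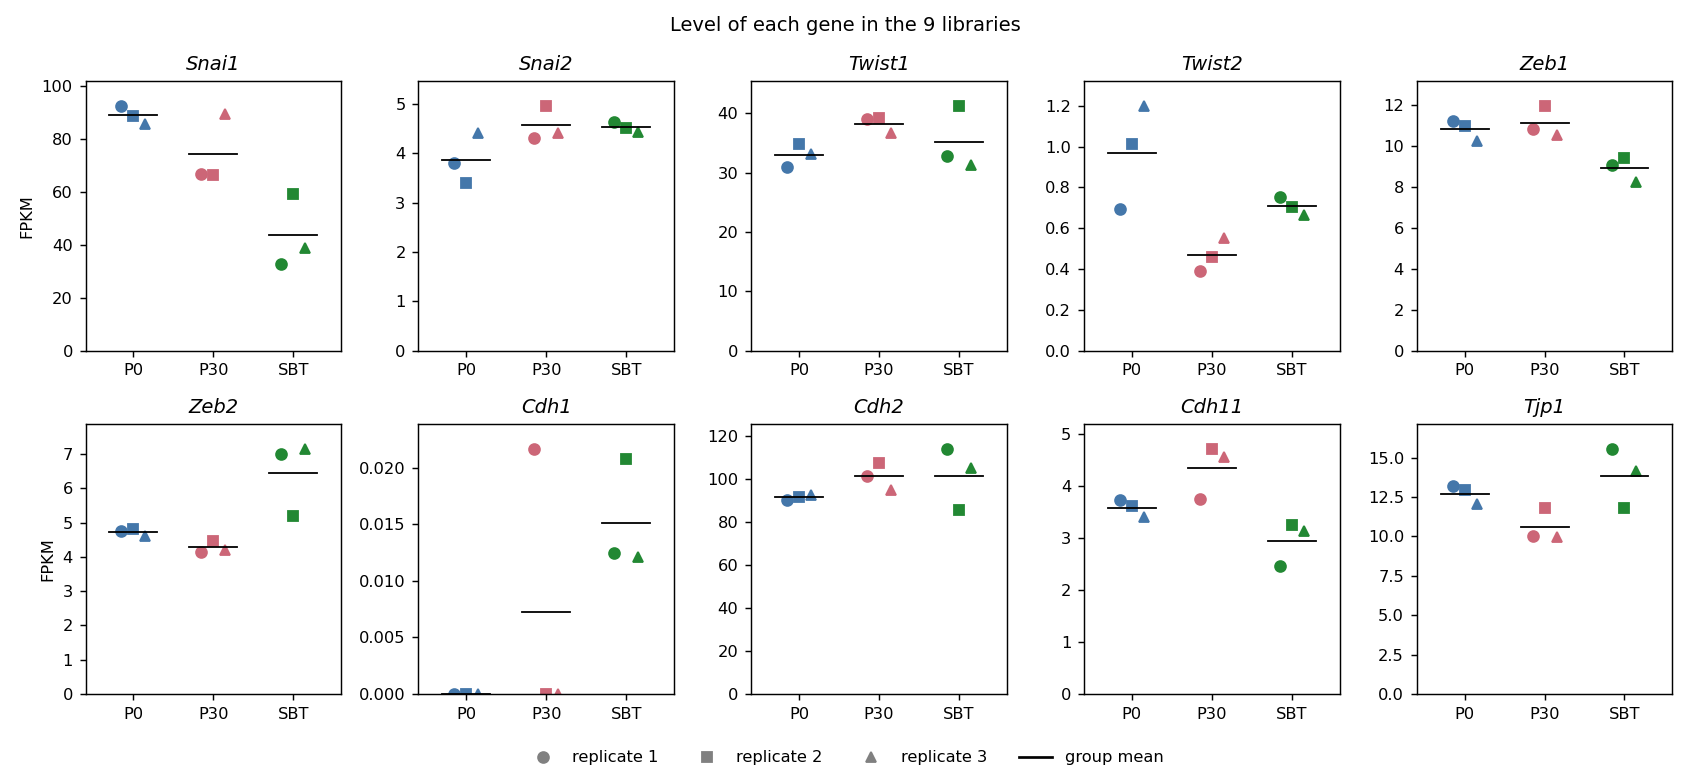
Level of each of the 10 genes (FPKM, y axis from 0 and scaled to each gene) in the libraries of P0, P30 and SBT, with 1 point per library, a shape per replicate number and a line at the group mean. Snai1 and Zeb1 are lowest and Zeb2 highest in all 3 SBT libraries, SBT replicate 2 (square) lies nearest to P30 for Snai1, Zeb2 and Tjp1, and the Cdh1 points stand for 0 to 2 counts.

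The order of levels was similar in the 3 groups. In P0 it ran Cdh2, Snai1, Twist1, Tjp1, Zeb1, Zeb2, Snai2, Cdh11, Twist2, Cdh1, and only the neighbours Cdh2 with Snai1 and Snai2 with Cdh11 overlapped in range. In P30 Zeb1 stood before Tjp1 and Zeb2 after Cdh11, and the neighbours Zeb1 with Tjp1, Snai2 with Cdh11, and Cdh11 with Zeb2 overlapped. In SBT the order was that of P0, and Snai1 with Twist1 was the only pair of neighbours that overlapped.

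The first comparison asked how passage 30 iCDCs differed from primary CDCs. Cdh1 did not pass the filter on low counts in any comparison, which leaves 9 tested genes. With edgeR's quasi-likelihood test and Benjamini-Hochberg adjustment over all tested genes, 2 of the 9 were called in P30 versus P0, beside 16.4% of all 13752 genes tested. Both were lower in P30, beside 9.21% of all genes called lower. Twist2 fell by 1.07 on the log2 scale (SE 0.26, edgeR adjusted p = 0.0233), from 0.969 ± 0.256 to 0.468 ± 0.082 FPKM (mean ± SD, n = 3 each). Tjp1 fell by 0.28 on the log2 scale (SE 0.081, edgeR adjusted p = 0.0484), from 12.7 ± 0.604 to 10.6 ± 1.06 FPKM (n = 3 each). With all 6 libraries no member was called higher by edgeR or by DESeq2, beside 7.21% of all genes by edgeR. At an unadjusted p under 0.05, 2 members, Twist1 and Cdh11, were higher.

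The other members gave differences of at most 0.28 on the log2 scale. Twist1 was 0.20 higher (95% interval 0.05 to 0.36, edgeR adjusted p = 0.0792) and Cdh11 0.26 higher (0.05 to 0.47, edgeR adjusted p = 0.0932). Snai1 gave a log2 fold change of -0.28 (-0.53 to -0.03, edgeR adjusted p = 0.122) and Zeb2 of -0.16 (-0.29 to -0.02, edgeR adjusted p = 0.110). The intervals of Cdh2 (-0.02 to 0.29), Snai2 (-0.08 to 0.52) and Zeb1 (-0.14 to 0.19) included 0. The FPKM ranges of P30 and P0 did not overlap for 6 of 9 members, beside 39.9% of all tested genes. Of these 6, Twist1, Cdh2 and Cdh11 were higher (beside 20.7% of all genes) and Twist2, Zeb2 and Tjp1 lower (beside 19.2%).

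These calls depended on single libraries. Twist2 was past the threshold in 11 of 15 other settings. Its log2 fold change was -0.94 without P30 replicate 1 (adjusted p = 0.0695), -1.06 without P30 replicate 2 (0.0660), -1.04 without P0 replicate 2 (0.0871) and -0.88 without P0 replicate 3 (0.105). Tjp1 was past it in 6 of 15, and lost its call without P30 replicate 1 (-0.23, adjusted p = 0.117) or without any one P0 library (-0.31 to -0.25, adjusted p = 0.102 to 0.195). Without P30 replicate 3, 6 members were called, which were Twist2, Tjp1, Snai1 (-0.43, adjusted p = 4.43e-06), Zeb2 (-0.14, adjusted p = 0.0411), Twist1 (0.24, adjusted p = 0.00529) and Cdh2 (0.18, adjusted p = 0.00160). Of all genes 31.7% were called in that fit. Without P30 replicate 1 only Cdh11 was called, higher by 0.36 (edgeR adjusted p = 0.0214), beside 15.2% of all genes. With no filter on low counts Snai1 was called as well (-0.29, edgeR adjusted p = 0.00732). In P30 replicate 3 the summed FPKM of 6 smooth muscle and pericyte markers was 1922, nearly all of it Acta2, against 817 and 853 in the other P30 libraries and 721 to 744 in P0. The part of this in the Snai1 level was not tested. In bulk RNA, fewer cells with a transcript and less of it per cell cannot be told apart.

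The second comparison set SBT against P30, which by the labels differ in SB431542 treatment. In SBT versus P30, 3 of 9 members were called by edgeR, beside 30.0% of all 13559 genes tested, which is near the background. Zeb2 was the 1 called higher, beside 16.0% of all genes. It rose by 0.61 on the log2 scale (SE 0.14, edgeR adjusted p = 0.0154), from 4.27 ± 0.176 to 6.45 ± 1.09 FPKM (n = 3 each), and was higher in 3 of 3 libraries than in any P30 library. Snai1 and Cdh11 were called lower, beside 14.0% of all genes. Snai1 fell by 0.75 on the log2 scale (SE 0.22, edgeR adjusted p = 0.0349), from 74.3 ± 13.3 to 43.7 ± 13.8 FPKM. Cdh11 fell by 0.55 on the log2 scale (SE 0.145, edgeR adjusted p = 0.0253), from 4.35 ± 0.519 to 2.95 ± 0.429 FPKM.

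The remaining members did not pass the threshold. Tjp1 was 0.40 higher on the log2 scale (95% interval 0.09 to 0.70, edgeR adjusted p = 0.0555) and Twist2 0.61 higher (0.05 to 1.18, edgeR adjusted p = 0.0931). Zeb1 gave a log2 fold change of -0.31 (-0.54 to -0.07, edgeR adjusted p = 0.0581) and Twist1 of -0.11 (-0.40 to 0.17, edgeR adjusted p = 0.517). The estimates of Cdh2 (0.02, interval -0.31 to 0.34) and Snai2 (0.00, interval -0.33 to 0.33) were closest to 0, and their signs turned under other settings. N-cadherin RNA was thus not called while cadherin-11 RNA was, but the difference between these effects was not tested. FPKM ranges did not overlap for 5 of 9 members, beside 46.5% of all genes, with Zeb2 and Twist2 higher (beside 23.0%) and Snai1, Zeb1 and Cdh11 lower (beside 23.5%).

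**Figure D2:**
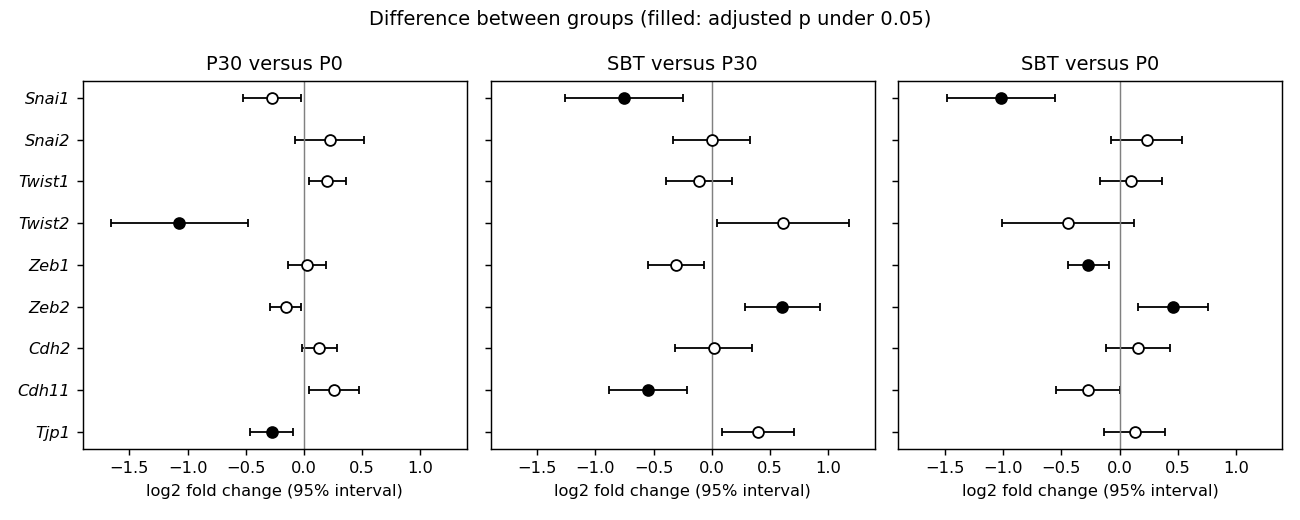
Log2 fold change (x axis) of the 9 tested members in P30 versus P0, SBT versus P30 and SBT versus P0, with 95% intervals and filled points where the edgeR adjusted p was under 0.05. Snai1 lies at -0.75 and -1.02 in the comparisons with SBT, Zeb2 at 0.61 and 0.46, and Cdh2 and Snai2 at 0.02 and 0.00 in SBT versus P30.

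The 3 called members gave larger differences without SBT replicate 2. Then 6 members were called, with Snai1 at -1.04 (adjusted p = 0.000463), Zeb2 at 0.74 (0.000148), Cdh11 at -0.63 (0.00553), Tjp1 at 0.50 (0.00422), Zeb1 at -0.35 (0.0168) and Twist1 at -0.25 (0.0453). Of all genes 50.2% were called in that fit. Without SBT replicate 2 and P30 replicate 3, 7 members were called, Twist2 being added at 0.75 (adjusted p = 0.0333), beside 64.5% of all genes. No member was called by edgeR without SBT replicate 1, without SBT replicate 3 or without P30 replicate 2, only Cdh11 without P30 replicate 1, and only Zeb2 without P30 replicate 3. The share of all genes called in these fits was 12.3% to 13.7%, and 25.4% without P30 replicate 3. Under these 5 omissions Snai1 ran from -0.83 to -0.58 (adjusted p = 0.0723 to 0.118), Zeb2 from 0.53 to 0.63 (adjusted p = 0.0438 to 0.0699) and Cdh11 from -0.65 to -0.43 (adjusted p = 0.0448 to 0.0988), so each kept its direction. DESeq2 called 5 members, beside 33.0% of all genes, adding Tjp1 (0.39, adjusted p = 0.0434) and Zeb1 (-0.31, adjusted p = 0.0486).

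**Figure D3:**
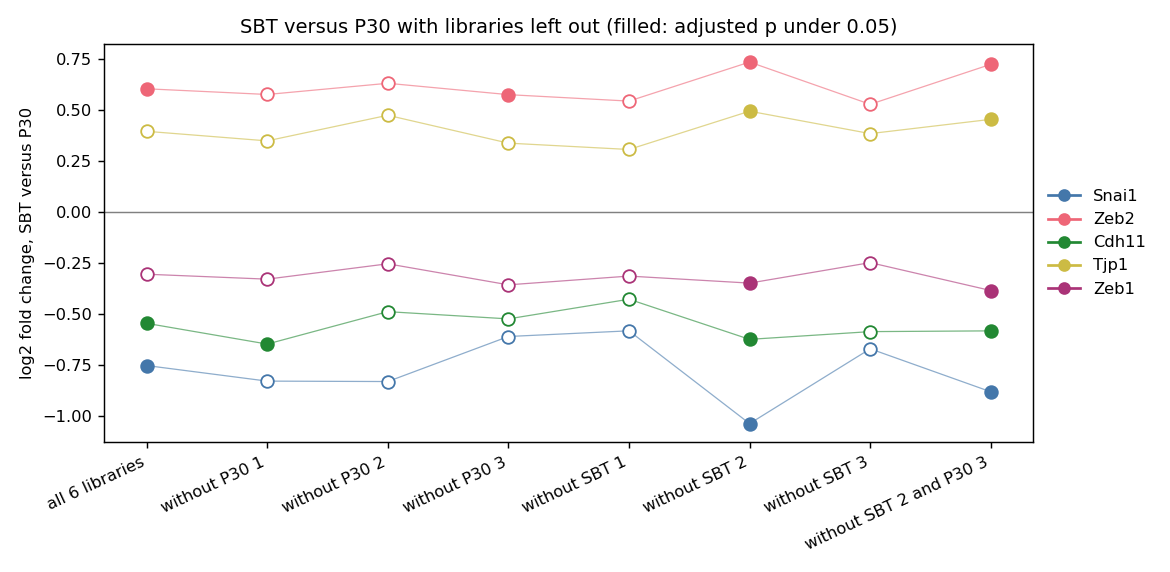
Log2 fold change in SBT versus P30 (y axis) of Snai1, Zeb2, Cdh11, Tjp1 and Zeb1 with all 6 libraries and with the libraries named on the x axis left out, filled where the edgeR adjusted p was under 0.05. The 5 genes keep their sign throughout, all 5 are filled without SBT replicate 2, and Snai1 runs from -1.04 to -0.58.

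SBT and P0 libraries were also compared, and the values share libraries with those above. Of 9 members 3 were called, beside 34.8% of all 14015 genes tested. Snai1 fell by 1.02 on the log2 scale (SE 0.198, edgeR adjusted p = 0.00834), from 89.1 ± 3.48 to 43.7 ± 13.8 FPKM. It passed the threshold in 15 of 15 other settings, with an adjusted p of at most 0.0399. Zeb1 fell by 0.27 on the log2 scale (SE 0.076, edgeR adjusted p = 0.0316), and Snai1 and Zeb1 stood beside 17.0% of all genes called lower. Zeb2, the 1 member called higher beside 17.9% of all genes, rose by 0.46 (SE 0.128, edgeR adjusted p = 0.0303). The calls of Zeb1 and Zeb2 were lost without SBT replicate 1, SBT replicate 3 or any one P0 library, with adjusted p = 0.0657 to 0.125 for Zeb1 and 0.0929 to 0.108 for Zeb2. Without SBT replicate 2, 6 members were called, beside 64.1% of all genes in that fit, with Snai1 at -1.30, Cdh2 at 0.27, Tjp1 at 0.23 and Cdh11 at -0.35.

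The other members were not called in SBT versus P0 with all 6 libraries. Tjp1 was 0.13 higher on the log2 scale (95% interval -0.13 to 0.39) and Twist1 0.10 higher (-0.16 to 0.37), while Twist2 was at -0.44 (-1.01 to 0.12). Cdh11 was at -0.27 (-0.55 to 0.00) and Cdh2 at 0.16 (-0.11 to 0.44), and Snai2 was 0.23 higher (-0.07 to 0.54). Ranges did not overlap for 5 of 9 members, beside 51.5% of all genes, with Snai2 and Zeb2 higher (beside 25.1%) and Snai1, Zeb1 and Cdh11 lower (beside 26.4%).

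Other EMT transcription factors changed in both directions. Of 16 listed, 15 were tested in P30 versus P0, with 2 higher and 5 lower, and 14 in SBT versus P30, with 2 higher and 2 lower. Their median log2 fold change was 0.05 and 0.14, beside 0.00 over all tested genes in both. Sox9, a factor of cartilage and valve mesenchyme, fell by 0.79 in P30 (SE 0.082, edgeR adjusted p = 0.000351) and rose by 1.21 in SBT versus P30 (SE 0.149, edgeR adjusted p = 0.00168). Foxc2, a forkhead factor of mesoderm, fell by 1.70 in SBT versus P30 (SE 0.16, edgeR adjusted p = 0.000703). Prrx1, a homeobox factor of mesenchyme, rose by 0.87 (SE 0.154, edgeR adjusted p = 0.00615). Id1, named after its values were seen and called in no comparison, encodes an inhibitor of E-box binding helix-loop-helix factors and responds to BMP and TGF-β signals. It was at 17.3, 65.3 and 17.8 FPKM in SBT and 62.2 to 76.6 in P30, so SBT replicate 2 lay within the P30 range for Id1. The same library lay outside the P30 range for Snai1 and Zeb2, and within it for Tjp1 and Snai2. Without SBT replicate 2, 3 of these factors were called higher and 5 lower (5 and 6 also without P30 replicate 3). Without P30 replicate 3, 4 were higher and 6 lower in P30 versus P0. Counts of this and the following lists stand beside 16.4% of all genes called in P30 versus P0 and 30.0% in SBT versus P30. In P30 versus P0 the share was 31.7% without P30 replicate 3. In SBT versus P30 it was 50.2% without SBT replicate 2 and 64.5% without both libraries.

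Epithelial regulators were mostly near 0. Of 10 repressors of EMT and epithelial splicing factors 3 were tested, and the splicing factor gene Esrp1 had 0 or 1 count in every library. Klf4, a Krüppel-like factor of epithelia, fell by 0.41 in P30 versus P0 (SE 0.076, edgeR adjusted p = 0.00721) and rose by 0.62 in SBT versus P30 (SE 0.109, edgeR adjusted p = 0.00580). Klf5 rose by 0.61 in P30 versus P0 (SE 0.169, edgeR adjusted p = 0.0386). Klf5 was lower in SBT versus P30 at an unadjusted p under 0.05 by edgeR, and was called lower there by DESeq2 and without SBT replicate 2. The remaining tested gene of the list was called in neither comparison by edgeR. Without P30 replicate 3, 1 was higher and 1 lower in P30 versus P0, as with all 6 libraries.

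Adhesion genes other than the 3 member cadherins moved in part. Of 10 further cadherins 4 were tested in P30 versus P0, with 2 higher and 1 lower, and 3 in SBT versus P30, with 1 lower. Cdh13, which encodes a cadherin anchored by a lipid tail, rose by 0.70 in P30 versus P0 (SE 0.139, edgeR adjusted p = 0.00957). Cdh6, named after its values were seen, had 23 to 27 counts in P0, 25 to 59 in P30 and 0 to 2 in SBT, and Cdh10, named likewise, had 11 to 22 counts in P0 and none in the other 6 libraries. Without P30 replicate 3, 2 further cadherins were higher and 2 lower in P30 versus P0, and without SBT replicate 2, 1 was higher and 1 lower in SBT versus P30. Of 12 catenin and nectin genes 10 were tested, with 3 higher and 0 lower in P30 versus P0 (0 lower also at an unadjusted p under 0.05 and by DESeq2) and with 2 higher and 3 lower in SBT versus P30. Jup, which encodes plakoglobin, rose by 0.51 in P30 (SE 0.0805, edgeR adjusted p = 0.00321) and by a further 0.45 in SBT versus P30 (SE 0.119, edgeR adjusted p = 0.0253). Nectin3, a cell adhesion molecule of the immunoglobulin family, fell by 0.92 in SBT versus P30 (SE 0.13, edgeR adjusted p = 0.00264) and Nectin1 fell by 0.70 (SE 0.123, edgeR adjusted p = 0.00597), while Nectin2 rose by 0.48 (SE 0.103, edgeR adjusted p = 0.0120). Without P30 replicate 3, 4 catenin and nectin genes were higher and 0 lower in P30 versus P0. In SBT versus P30, 2 were higher and 3 lower without SBT replicate 2, and 3 higher and 6 lower without P30 replicate 3 as well.

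Tight junction genes beside Tjp1 were mostly too low to test, with 10 of 26 tested in P30 versus P0 and in SBT versus P30. In the former 2 were higher and 1 lower, and Jam2, which encodes a junctional adhesion molecule, fell by 0.60 (SE 0.128, edgeR adjusted p = 0.0133). In the latter 1 was higher and 1 lower. F11r, which encodes the junctional molecule JAM-A, was at 1.43, 1.21 and 0.489 FPKM in P30 and 8.05, 2.09 and 7.88 in SBT, and rose by 2.51 (SE 0.553, edgeR adjusted p = 0.0132). Claudin-12 (Cldn12) fell by 0.57 (SE 0.137, edgeR adjusted p = 0.0173). Without SBT replicate 2, 12 of the genes were tested, of which 5 were higher and 1 lower (5 and 3 also without P30 replicate 3). Without P30 replicate 3, 3 were higher and 1 lower in P30 versus P0.

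Keratin and desmosome genes did not move as 1 group. Of 20 such genes 6 were tested in P30 versus P0, where 3 were higher and 1 lower, and 7 in SBT versus P30, where 2 were higher and 3 lower. Epcam, a surface protein of epithelia, had 0 or 1 count in every library, and the simple epithelial keratin Krt8 had 0 or 1 count as well. Krt19 was at 18.2 to 19.5 FPKM in P0 and 28.8 to 31.2 in P30, a rise of 0.64 (SE 0.0676, edgeR adjusted p = 0.000374). Periplakin (Ppl), a plakin of the cell cortex, was at 0.402, 0.494 and 0.255 FPKM in P30 and 16.7, 3.75 and 14.7 in SBT, and rose by 4.93 (SE 0.586, edgeR adjusted p = 0.00146). Plakophilin-2 (Pkp2), a desmosomal plaque protein, fell by 2.39 (SE 0.508, edgeR adjusted p = 0.0116). Of these genes 2 were higher and 4 lower without SBT replicate 2, and without P30 replicate 3, 3 were higher and 1 lower in P30 versus P0.

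All 16 mesenchymal EMT markers were tested, with 3 higher and 5 lower in P30 versus P0 and 5 higher and 5 lower in SBT versus P30. The median log2 fold change in SBT versus P30 was -0.01, beside 0.00 over all genes. The adhesion molecule gene Ncam1 fell by 2.89 (SE 0.392, edgeR adjusted p = 0.00220). Smooth muscle actin (Acta2) fell by 2.56 (SE 0.448, edgeR adjusted p = 0.00581), while the collagen gene Col3a1 rose by 1.51 (SE 0.368, edgeR adjusted p = 0.0188). Without SBT replicate 2, 8 were higher and 6 lower, beside 50.2% of all genes called. Without P30 replicate 3, 4 were higher and 7 lower in P30 versus P0, beside 31.7% of all genes called. The summed smooth muscle markers were 139 to 331 FPKM in SBT, highest in replicate 2, against 817 to 1922 in P30. Both this sum and Snai1 were lower in SBT than in P30 and highest in the same library of each of these groups, while mean Snai1 was lower and the sum higher in P30 than in P0. The part of the one in the other was not tested.

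Genes for partners of these factors were followed as a list of 14 corepressors and turnover enzymes. In P30 versus P0 3 were higher and 1 lower, and Ezh2, which encodes a histone methyltransferase of Polycomb, rose by 0.49 (SE 0.0598, edgeR adjusted p = 0.000822). In SBT versus P30 4 were lower and 0 higher by edgeR and by DESeq2, with 2 higher and 7 lower at an unadjusted p under 0.05 by edgeR. The lower ones were Ezh2 (-0.91), the Zeb corepressor Ctbp2 (-0.56), the histone deacetylase Hdac2 (-0.40) and the kinase Lats2 (-0.33), with edgeR adjusted p = 0.00669, 0.00546, 0.0223 and 0.0340. Leaving out SBT replicate 2, 7 were lower and 2 higher, beside 50.2% of all genes called. Without P30 replicate 3, 7 were higher and 2 lower in P30 versus P0, beside 31.7% of all genes called.

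**Figure D4:**
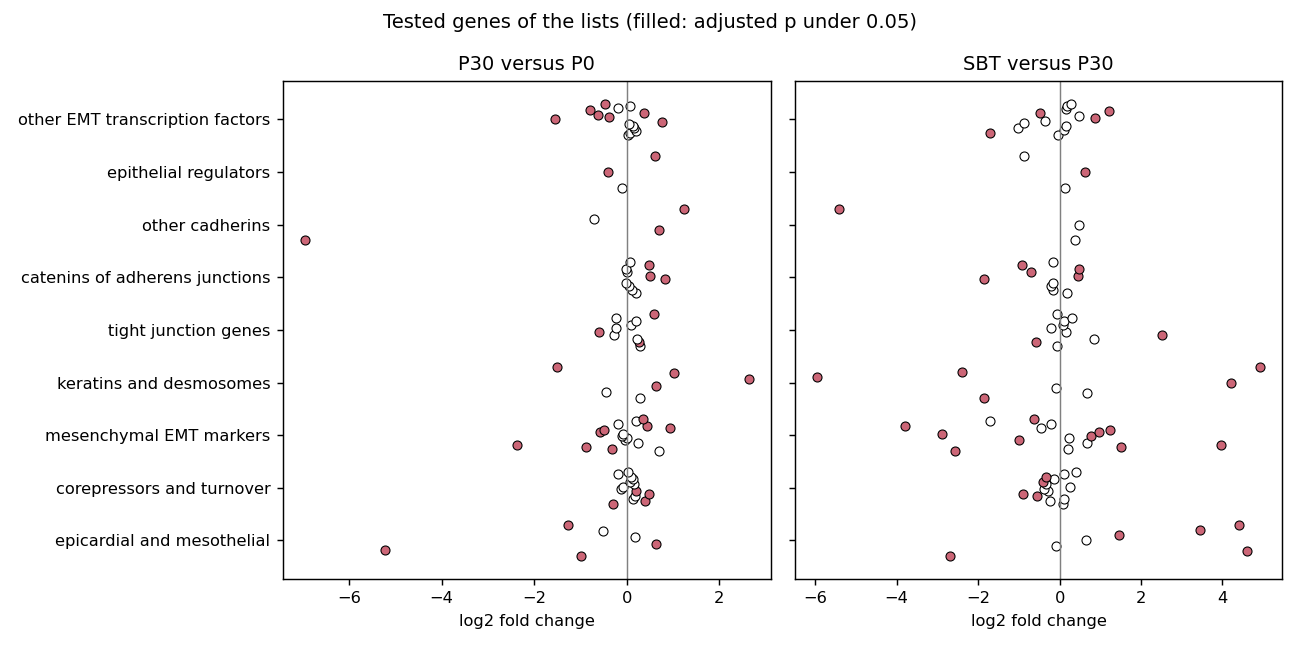
Log2 fold change (x axis) of each tested gene of the lists (1 point per gene, filled where the edgeR adjusted p was under 0.05) in P30 versus P0 and SBT versus P30. Filled points lie on both sides of 0 in most lists, and the points beyond 4 on either side come from genes near 0 in a group, whose fitted fold depends on the prior count, or from Ppl.

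Epicardial and mesothelial markers moved beside the members. Of 10 such markers 6 were tested in P30 versus P0, with 1 higher, 3 lower and a median log2 fold change of -0.74, and 7 in SBT versus P30, with 4 higher, 1 lower and a median of 1.47. Without P30 replicate 3, 2 were higher and 3 lower in P30 versus P0, and without SBT replicate 2, 5 were higher and 2 lower in SBT versus P30. Their summed level was 45.7 to 47.2 FPKM in P0, 51.7 to 60.2 in P30 and 66.5 to 69.0 in SBT, most of it from Krt19 and Tbx18. Krt19 was at 18.2 to 19.5, 28.8 to 31.2 and 22.8 to 37.9 FPKM in these groups. Tbx18, the T-box factor of epicardium, was at 19.0 to 20.3 FPKM in P0, 18.8 to 25.03 in P30, and 39.7, 22.9 and 41.8 in SBT. It was higher in SBT versus P0 (0.84, SE 0.215, edgeR adjusted p = 0.0228). With all libraries of the groups, edgeR called it neither in SBT versus P30 nor in P30 versus P0, and SBT replicate 2 lay within the P30 range. The sum was thus higher in P30 than in P0 while more markers were called lower than higher. Upk3b, a mesothelial uroplakin, rose by 3.45 in SBT versus P30 (SE 0.35, edgeR adjusted p = 0.000912) and Tcf21, an epicardial and fibroblast factor, by 1.47 (SE 0.255, edgeR adjusted p = 0.00565). The retinoic acid enzyme gene Aldh1a2 fell by 0.98 in P30 versus P0 (SE 0.124, edgeR adjusted p = 0.00106) and in SBT versus P30 fell by 2.68 (SE 0.315, edgeR adjusted p = 0.00138). Wt1, the defining epicardial factor, was at 0.107 to 0.396 FPKM in SBT and at most 0.0921 in the other groups, and Muc16 had no count in any library. The part of these genes in the member levels was not tested.

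Genes with levels most like those of a member were sought among 12311 protein-coding genes by Pearson's r of log2 CPM, counts scaled to library size, over the 9 libraries. These values describe 9 points that fall in 3 groups and share library effects. For Snai1 they were Ewsr1 (r = 0.989), Sh3rf1 (0.988) and Ak1 (0.988), and for Zeb2 they were Clybl, Dapk1 and Peli3 (0.996 each). For Tjp1 they were Helz (0.990), Slc36a1 (0.981) and Hacl1 (0.978). Cdh11 was closest to Gm10184 (0.970) and Hoxa2 (0.969), Zeb1 to Zc3h18 (0.979), and Cdh2 to Ppm1e (0.961). Twist1, Twist2 and Snai2 had no gene so near, with best values of 0.935 for Rpap3, 0.918 for Igfbp3 and 0.892 for Slamf9. Between members, the values largest in size over the 9 libraries were r = -0.86 for Snai1 with Zeb2 and 0.85 for Zeb2 with Tjp1. Next came -0.84 for Zeb1 with Zeb2, -0.81 for Zeb2 with Cdh11 and 0.77 for Snai1 with Zeb1.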

How the data were processed

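RNA sequencing profiles from 9 libraries were analysed, 3 each of P0, P30 and SBT, grouped by their labels. The authors deposited raw counts per gene and FPKM values, the latter being the count divided by gene length and a library constant. The submitters' processing notes name Bowtie2 2.0.6, TopHat2 2.0.9 and mm9, but the coordinates of 53585 of 54532 genes are those of GENCODE M21 on GRCm38, and the counting program and use of strand are not given in the sources used here. The authors' log2 fold changes, p-values and group means in the same table were not used. One count, of Pkm in P0 replicate 3, is not the one its FPKM gives and was used as deposited.

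Totals were 19462912 to 23951392 counts in P0, 16568306 to 20204216 in P30 and 17063137 to 20849975 in SBT. The main test was that of edgeR 4.0.16 under R 4.3.3 (TMM, filterByExpr with a minimum count of 10 and a minimum total of 15, quasi-likelihood test, 2 groups per fit, Benjamini-Hochberg adjustment over all tested genes, threshold 0.05). Standard errors were taken from the log2 fold change and its F statistic. The biological coefficient of variation was 0.0919 in P30 versus P0, 0.171 in SBT versus P30 and 0.144 in SBT versus P0. Scripts were checked on simulated counts. The floor of detection was set at 3 counts a library and covers counting error only. No members share a window of 50 identical transcript bases. Alternatives were RLE and upper-quartile scaling, other filters, DESeq2 1.42.0, limma 3.58.1 on log2(FPKM + 1) and log2(FPKM + 0.1), all 9 libraries in the fit, a replicate block, a minimum log2 fold change of 1, and each library left out. Leaving out SBT replicate 2 and P30 replicate 3 together, and list counts and named list genes without them, were added after seeing the data.

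The members and lists were chosen with earlier results of these data known. All members are named. Of each list, at most 4 genes per comparison past adjusted p of 0.05 and with a mean of at least 1 FPKM in the higher group could be named, by size of log2 fold change, and values of marker genes are given beside them. Id1, Cdh6 and Cdh10 are exceptions, named after their values were seen. Of the genes most like each member, up to 3 were named. Some genes of the lists are counted but not reported here by name.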

Additional observations from a re-analysis of the deposited data

How the results depend on the processing

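Of 414 recomputed values, 332 kept their direction and side of the threshold. Genes called in P30 versus P0 numbered 2258, 671 with all 9 libraries in the fit, 512 with a log2 fold change of at least 1 and 1036 to 4467 with a library left out. In SBT versus P30 they numbered 4061, 1434 with a log2 fold change of at least 1, 1707 to 7001 with a library left out and 8951 without SBT replicate 2 and P30 replicate 3. In SBT versus P0 they numbered 4881, 1330 at a log2 fold change of at least 1 and 2453 to 9188 with a library left out. The highest counts were those without P30 replicate 3 or without SBT replicate 2.

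Members called in P30 versus P0 numbered 2, and 1 with RLE size factors, with limma on log2(FPKM + 1) or log2(FPKM + 0.1), with all 9 libraries, with the replicate block or at a log2 fold change of at least 1, and 0 to 6 with a library left out. In SBT versus P30 they numbered 3, 5 with DESeq2 or all 9 libraries, 7 without SBT replicate 2 and P30 replicate 3, 0 at a log2 fold change of at least 1, and 0 to 6 with a library left out. In SBT versus P0 they numbered 3, 1 with limma on log2(FPKM + 0.1) or at a log2 fold change of at least 1, and 1 to 6 with a library left out. Fits with a library left out also hold fewer samples, and the cause of these changes was not tested.

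Small estimates changed sign. Snai2 in SBT versus P30 (0.0002) became -0.003 with RLE size factors, -0.0074 with no filter, -0.0026 with DESeq2, -0.0079 and -0.0091 with limma on log2(FPKM + 1) and log2(FPKM + 0.1), -0.0068 with all 9 libraries, -0.0202 without SBT replicate 2 and P30 replicate 3, and -0.0456, -0.0384, -0.0121 and -0.0003 without P30 replicate 1, P30 replicate 3, SBT replicate 1 and SBT replicate 2, its highest value being 0.0586. Cdh2 in SBT versus P30 became -0.004 and -0.0041 with limma on log2(FPKM + 1) and log2(FPKM + 0.1), and -0.072, -0.0037 and -0.0435 without SBT replicate 1, SBT replicate 3 and P30 replicate 3 (highest 0.1217). Zeb1 in P30 versus P0 became -0.0296 and -0.0086 without P30 replicate 2 and P0 replicate 3 (highest 0.0654), and Twist1 in SBT versus P0 became -0.0292 without SBT replicate 2 (highest 0.1769). No such estimate passed the threshold.

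Correlations of deviations from group means ran from -0.207 to 0.0329 for same-numbered libraries of different groups. For differently numbered libraries they ran from -0.100 to 0.190, so no pairing by number was seen. Deviations were centred in groups of 3, and 2 libraries stood apart. The check therefore cannot tell whether same-numbered libraries shared a culture or batch. With the replicate block, 1791 genes and 1 member were called in P30 versus P0, 3038 and 3 in SBT versus P30, and 3886 and 2 in SBT versus P0. Scaling moved the median of all genes to at most 0.03 on the log2 scale. Cdh1 is limited by depth, at 0 to 2 counts a library, and Twist2 rests on 24 to 89.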
